A study of Mus musculus with 9 samples.

Results

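The complement genes examined here were 9 of the 20731 gene symbols counted in mouse brain, C1qa, C1qb, C1qc, C1ra, C3, C4b, C3ar1, C5ar1 and Serping1. They were chosen by name as components, receptors and regulators of the cascade. All 9 were found in the count table, and all 9 held enough reads to be among the 14746 genes tested. RNA was sequenced from the brains of 9 male C57BL/6J mice aged 8 to 10 weeks, 3 in each of the groups labelled CVST, CVST_Ligation and CVST_Ligation_4_PBA, which are called CVST, CVST+Ligation and 4-PBA below. In every mouse the superior sagittal sinus, the large vein that runs along the top of the brain, was clotted with ferric chloride as a model of cerebral venous sinus thrombosis (CVST), and tissue was taken on day 2. The deep cervical lymph nodes, which receive the outflow of the meningeal lymphatic vessels, were also ligated in the CVST+Ligation and 4-PBA mice. The 4-PBA mice further had 4-phenylbutyric acid, which eases stress of the endoplasmic reticulum, injected into the peritoneum at 100 mg/kg. The methods place this injection 30 min before modelling, and the deposited description places it after ligation. The label of the tissue is brain with no region named, and the deposited description speaks of cortex. No sham-operated mouse was analysed here, so each level below belongs to a brain with a clotted sinus.

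Complement is a cascade of proteins that tags cells, debris and microbes for removal and calls in immune cells. In its classical branch, C1q is the recognition molecule, built from the chains that C1qa, C1qb and C1qc encode. Bound C1q activates the proteases C1r and C1s, which cleave C4 and C2, and the resulting enzyme cleaves C3. Fragments of C3 and C5 released further on act on the receptors encoded by C3ar1 and C5ar1, while the C1 inhibitor encoded by Serping1 inactivates C1r and C1s. In the brain C1q is made mainly by microglia, where it is known for tagging synapses, and C4 and C3 are made largely by glia and rise in many injuries.

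The libraries held 18100739 to 25091498 counted reads. A level of 3 counts, the smallest taken as detected, corresponded to 0.114 to 0.163 CPM (read counts relative to library size, scaled by edgeR's TMM method), a floor that covers counting error only. The lowest count of any of the 9 genes was 29, for C5ar1 in 4-PBA replicate 1 (exact Poisson 95% interval 19.4 to 41.6, counting error only), so each gene was detected in each library. For a single gene, 3 mice against 3 cannot give an exact two-sided permutation p below 0.1. The p-values therefore come from edgeR's quasi-likelihood test, in which genes borrow their spread from each other.

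Several libraries stood apart from the others of their group. In 4-PBA replicate 3 the 16 listed genes of reactive astrocytes, with Gfap the most abundant and none at the floor, summed to 3671 CPM, against 571 and 999 in the other 4-PBA mice and 1353 to 2234 in the remaining groups. CVST+Ligation replicate 2 held 1581 CPM of the 8 listed cerebellar genes, led by Pvalb, against 109 to 219 in every other library. CVST replicate 2 stood apart in complement genes themselves, with 13.2 CPM of C3 and 6.08 of C1s1, against at most 3.02 and 2.25 in the other CVST mice. Values without these libraries are given below where they changed a direction or a call.

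Markers of brain regions also differed between the groups. The 8 midbrain genes, led by Ddc, summed to 18.02, 18.4 and 19.6 CPM in the CVST mice, to 210.4, 211 and 172 in the CVST+Ligation mice and to 232, 226 and 233 in the 4-PBA mice. The 8 striatal genes, led by Penk, summed to 1029 to 1855 CPM in the CVST mice, 214 to 512 in the CVST+Ligation mice and 246 to 1254 in the 4-PBA mice. All 8 midbrain genes were higher and all 8 striatal genes lower in the CVST+Ligation than in the CVST group at an unadjusted p below 0.05. Of the 10 cortical genes, led by Neurod6, 5 were lower. Of all 14746 genes tested, 806 were higher and 616 lower. After Benjamini-Hochberg adjustment edgeR called 3 genes in that comparison, and all 3 were midbrain genes. The cortical genes summed to 629.9 to 1067 CPM in the CVST, 261 to 567 in the CVST+Ligation and 258 to 346 in the 4-PBA group. The 8 hypothalamic genes, led by Pmch, summed to 278 to 474 CPM in the 4-PBA mice and to at most 21.1 elsewhere. The 8 thalamic genes, led by Prkcd, summed to 83.5 to 89.0 CPM in the CVST, 172 to 343 in the CVST+Ligation and 348 to 666 in the 4-PBA mice. At an unadjusted p below 0.05, 5 of these 8 were higher in the CVST+Ligation and 8 in the 4-PBA than in the CVST group. For all 14746 genes tested these numbers were 806 and 1190. No gene of these region lists was at or under the floor in all libraries. The part of tissue region in the complement results was not tested.

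Levels of different genes were compared per length, on the FPKM values the authors deposited. The C1q genes were by far the most abundant of the 9 and made up 83.5% to 93.4% of their summed FPKM in the single libraries. In the CVST group C1qa had 179 ± 21.3 FPKM, C1qb 175 ± 14.5 and C1qc 142 ± 21.4 (SD, n = 3 for each). C4b followed with 22.1 ± 5.70 FPKM (SD, n = 3). Serping1, C3ar1, C1ra and C5ar1 had mean levels of 8.20, 6.98, 6.01 and 4.74 FPKM in the CVST group, and each step between these neighbours was smaller than their SDs of 1.83 to 3.75. C3 was lowest in the CVST group, with 1.26 ± 1.19 FPKM (SD, n = 3). In the other groups Serping1 reached 13.5 ± 10.4 (CVST+Ligation) and 21.9 ± 9.59 FPKM (4-PBA; SD, n = 3 for each), and it exceeded C4b in replicate 2 of both. Liver, the main source of the complement proteins in plasma, left little trace in these libraries. The 10 listed hepatocyte genes summed to 0.992 to 2.78 CPM, Apoa2 was the most abundant, and 1 of the 10 was at or under the floor in every library.

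Between the CVST+Ligation and CVST groups, 8 of the 9 complement genes had a negative log2 fold change, and Serping1 was the exception. The CVST+Ligation mice were all below the CVST mice for 5 of the 9, C1qa, C1qb, C1qc, C1ra and C5ar1. Among all genes tested, 7.21% separated in that direction. An unadjusted p below 0.05 was reached by 4 of the 9, the C1q genes and C1ra, all lower after ligation, against 4.18% of all genes. After Benjamini-Hochberg adjustment over all genes, edgeR's quasi-likelihood test called 0 of the 9 at 0.05 (0.0203% of all genes), while DESeq2 called 2, C1qc and C1ra, among 264 of the 14746 genes. The median log2 fold change was -0.61 over the 9 genes and 0.00212 over all genes tested.

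Between the 4-PBA and CVST+Ligation groups, all 9 complement genes had a log2 fold change above 0, and this rested on 4-PBA replicate 3, without which 7 of the 9 changed sign. The groups overlapped for each of the 9 genes, while 7.73% of all genes did not overlap in one direction or the other. The number with an unadjusted p below 0.05 in edgeR's quasi-likelihood test was 0 of the 9, against 3.23% of all genes. Over all genes this number rested on CVST+Ligation replicate 2, since it was 476 of 14746 with that library and 1497 of 14950 without it, where Serping1 was 1 of the 9. After Benjamini-Hochberg adjustment the test again called 0 of the 9, and 0% of all genes passed. DESeq2 gave 1 of the 9 an unadjusted p below 0.05, C5ar1, as it did for 570 of the 14746 genes, and called 0 of the 9 after adjustment. The median log2 fold change was 0.43 over the 9 genes and -0.02 over all genes. Without 4-PBA replicate 3 it was -0.19 over the 9. It lay between 0.26 (without CVST+Ligation replicate 3) and 0.80 (without 4-PBA replicate 1) when other single libraries were left out.

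The 4-PBA group was also set against the CVST group, a comparison that shares its mice with the other 2. The 4-PBA mice were all below the CVST mice for 2 of the 9 genes, C1qc and C1ra, where 11.5% of all genes separated in that direction. At an unadjusted p below 0.05, C1qa, C1qb, C1qc and C1ra were lower (4 of the 9, against 7.33% of all genes) and Serping1 was higher (1 of the 9, against 8.07%). After Benjamini-Hochberg adjustment edgeR's quasi-likelihood test called 0 of the 9 and 0.122% of all genes, and DESeq2 called 1, C1qc, among 855 of the 14746 genes. The count of 5 genes below an unadjusted p of 0.05 was 4 without CVST replicate 1 and, with C1qa no longer below, 4 with scaling by total counts and in the model of only these groups. It was 2 without CVST replicate 2, CVST replicate 3 or 4-PBA replicate 2, 3 without 4-PBA replicate 1 and 6 without 4-PBA replicate 3.

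**Figure D1:**
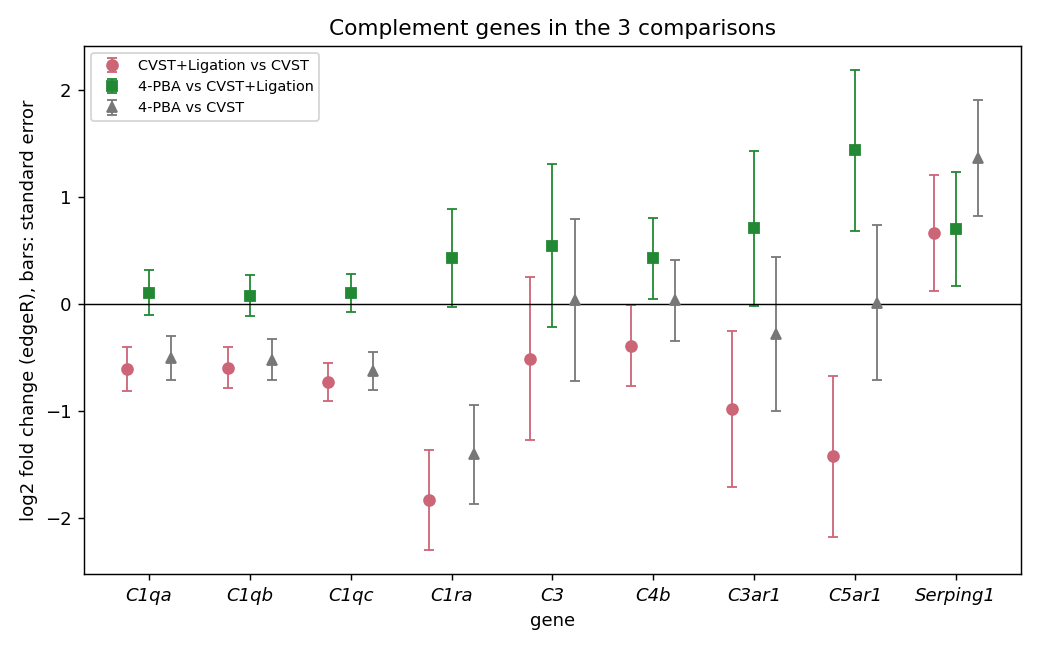
Log2 fold change of each complement gene (vertical axis) in the 3 comparisons, from edgeR's model of all 9 libraries; bars are the standard error of the model. The C1q genes and C1ra lie below 0 against the CVST group in both comparisons with it, and the bars are widest for C3, C5ar1 and C3ar1, followed by Serping1, C1ra and C4b.

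The genes of the C1q chains had lower mean RNA levels in both ligated groups than in the CVST group, and none passed the adjusted threshold in edgeR's test. C1qa had 117, 139 and 149.8 CPM in the CVST mice, 84.0, 88.8 and 93.1 in the CVST+Ligation mice and 72.4, 83.2 and 130.1 in the 4-PBA mice. C1qb had 124, 136 and 150.1 CPM in the CVST mice, 86.7, 87.9 and 96.7 in the CVST+Ligation mice and 78.0, 80.5 and 127 in the 4-PBA mice. C1qc had 89.2, 116 and 118 CPM in the CVST mice, 64.8, 64.6 and 65.1 in the CVST+Ligation mice and 62.3, 58.3 and 88.6 in the 4-PBA mice. For all 3 chains, every ligated mouse without 4-PBA lay below every CVST mouse, and 4-PBA replicates 1 and 2 lay below the CVST mice as well. 4-PBA replicate 3 was higher than the other 4-PBA mice in each chain and fell inside the CVST range for C1qa and C1qb.

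C1qc showed the smallest p of the chains. Its mean went from 108 ± 16.1 CPM (SD, n = 3) in the CVST group to 64.9 ± 0.285 (SD, n = 3) with ligation, a change of -39.8%. The log2 fold change was -0.73 (standard error 0.18, unadjusted p = 0.0024, adjusted p = 0.288 in the quasi-likelihood test of edgeR with Benjamini-Hochberg adjustment). C1qa changed by -0.61 on the log2 scale (standard error 0.21, unadjusted p = 0.0159) and C1qb by -0.60 (standard error 0.19, unadjusted p = 0.011), with adjusted p of 0.409 and 0.38 in the quasi-likelihood test of edgeR with Benjamini-Hochberg adjustment. DESeq2 gave C1qc an adjusted p of 0.0264, and over all alternative settings this value ranged from 0.0264 to 0.576. In bulk RNA, fewer cells of a type and less RNA per cell cannot be told apart.

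Between the 4-PBA and CVST+Ligation groups the C1q chains differed by less than their spread. The log2 fold changes were 0.10 for C1qa, 0.08 for C1qb and 0.10 for C1qc, with standard errors of 0.21, 0.19 and 0.18. Without 4-PBA replicate 3 they were -0.19, -0.19 and -0.11. Against the CVST group, the 4-PBA values of C1qa, C1qb and C1qc were -0.50, -0.52 and -0.63 on the log2 scale, with unadjusted p of 0.0366, 0.0216 and 0.00604. When single mice were left out, C1qc stayed below 0.05 in all 6 fits, and C1qa and C1qb did so only without CVST replicate 1 or without 4-PBA replicate 3. C1qa was -0.80 in the last of these fits and -0.32 without 4-PBA replicate 1, and C1qb was -0.79 and -0.38. The adjusted p of C1qc in this comparison was 0.144 in the quasi-likelihood test of edgeR with Benjamini-Hochberg adjustment and 0.0424 with DESeq2, within a range of 0.0424 to 0.427 over the settings tried.

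The chains kept a narrow ratio to each other in all 9 libraries. The ratio of C1qa to C1qb, in FPKM, lay between 0.959 and 1.07, and that of C1qc to C1qb between 0.693 and 0.877. Their spread within groups lay somewhat below the middle of all genes tested, at percentiles 46.3, 39.5 and 35 for C1qa, C1qb and C1qc. The pooled SD of log2 CPM was 0.28 for C1qa, 0.25 for C1qb and 0.23 for C1qc, below the median of 0.30 over all genes tested, whereas it was 0.55 to 1.09 for the other 6 complement genes. Summed over the chains, C1q had 379.6 ± 45.0 CPM in the CVST, 244 ± 9.95 in the CVST+Ligation and 260.3 ± 74.5 in the 4-PBA group (SD, n = 3 for each).

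Microglial genes were compared with C1q because microglia are its main source in brain. Of the 15 listed microglial genes, none was at or under the floor in every library. Their sum was 1002, 1129 and 996 CPM in the CVST mice, 841, 810.3 and 739 in the CVST+Ligation mice and 776, 740.5 and 944 in the 4-PBA mice. The CVST+Ligation mice were thus all below the CVST mice in this sum, and 4-PBA replicate 3 was the highest of its group, as for C1q. At an unadjusted p below 0.05, 7 of the 15 were lower and 0 higher in the CVST+Ligation than in the CVST group. Of all genes tested, 4.18% were lower at this p. The median log2 fold change over the microglial list was -0.38. Between 4-PBA and CVST 4 of the 15 were lower, against 7.33% of all genes, and 0 higher, with a median of -0.27. Between 4-PBA and CVST+Ligation 0 were lower and 0 higher, with a median of 0.05. After Benjamini-Hochberg adjustment edgeR's quasi-likelihood test called 0 of the 15 in each comparison.

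All 15 microglial genes had a log2 fold change below 0 between CVST+Ligation and CVST. Trem2, a receptor for lipids and debris, had 23.5, 26.4 and 27.1 CPM in the CVST mice and 15.1, 18.9 and 16.6 in the CVST+Ligation mice. Aif1, which encodes the microglial marker protein IBA1, had 19.1, 17.5 and 22.1 CPM and then 10.1, 11.03 and 13.5. The groups did not overlap for either gene. In other mice of the study, the authors report IBA1 immunofluorescence, a measure of protein, as raised after CVST and further raised with ligation. P2ry12, the purine receptor of surveying microglia, had 27.2, 30.2 and 34.3 CPM in the CVST mice and 38.4, 22.1 and 27.3 in the CVST+Ligation mice, with overlapping groups and a log2 fold change of -0.06 (standard error 0.27). In the 4-PBA mice P2ry12 had 30.8, 34.5 and 17.9 CPM and was lowest in replicate 3. Trem2 (16.0, 15.8 and 20.3 CPM) and Aif1 (10.1, 9.34 and 16.7) were highest there, as were 9 of the 15 microglial genes. Relative to the microglial sum, the C1q sum was 33.0%, 34.6% and 42.0% in the CVST mice, 28.0%, 29.8% and 34.5% in the CVST+Ligation mice and 27.4%, 29.98% and 36.7% in the 4-PBA mice. This ratio overlapped between all groups, with means of 36.5%, 30.8% and 31.4%. How far the microglial genes account for the C1q values was not tested.

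**Figure D2:**
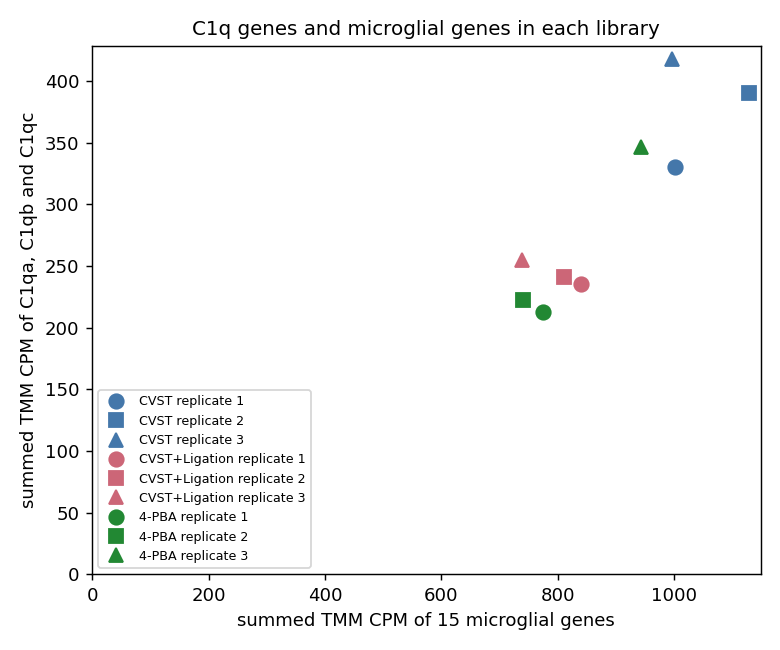
Summed level of the C1q chains (vertical axis, TMM CPM) against the summed level of 15 microglial genes (horizontal axis, TMM CPM), 1 point per library, with colour for the group and shape for the replicate. The CVST libraries lie at 330 to 418 CPM of C1q, the CVST+Ligation libraries at 236 to 255, and 4-PBA replicate 3 at 346 apart from the other 4-PBA libraries at 213 and 222.

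Among 11385 genes with a mean of at least 5 CPM, the 3 whose log2 CPM followed the mean of the C1q chains most closely over the 9 libraries were Spi1 (r = 0.979), Pcna (r = 0.957) and Aif1 (r = 0.953). These correlations are descriptions, and the 9 libraries come from 3 groups, so differences between groups enter r. Depth also differed between the libraries. Spi1, which encodes a transcription factor of myeloid cells, had 9.14, 11.9 and 11.2 CPM in the CVST mice, 5.99, 6.39 and 6.02 in the CVST+Ligation mice and 4.88, 5.51 and 10.9 in the 4-PBA mice. Its groups overlapped and separated in the same places as those of C1qa and C1qb.

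The genes of the chains lie beside each other on the minus strand of chromosome 4, within chr4:136880126-136898844 of build GRCm38.p6, in the order C1qb, C1qc, C1qa. Since the chains moved together, windows of 250 bases before an annotated start were read from RefSeq (GRCm38.p6). Of the 9 complement genes, 6 had an entry there: C1qb, C1qc, C1ra, C3, C3ar1 and C5ar1; C1qa, C4b and Serping1 had none. The start of an entry need not be the outer end of the gene, and the windows of C1qc and C5ar1 ran into the range of their genes. GENCODE exons covered 216 of the 250 bases in the window of C1ra, 151 in that of C1qc, 28 in that of C5ar1, 4 in that of C3ar1 and 0 in those of C1qb and C3. The letters GAGGAA were searched on both strands and occurred in 2 of the 6, C1qb and C1qc, and in 23.3% of all 32851 promoters of this length. The pattern TTCNNNGAA, in which N is any base, occurred in 0 of the 6 and in 7.02% of all promoters. The core of the interferon-stimulated response element occurred in 0 of the 6 and in 2.98%. The match in C1qb began 30 bases before the start, on the gene's own strand, and that in C1qc 193 bases before it, on the opposite strand. A match is a description of the letters and does not mark a bound site. The whole window of C1qb and a short stretch around the match of C1qc, which holds no exon base itself, are given 5′ to 3′ on the minus strand, with the match in capitals.
C1qb, chr4:136886201-136886450: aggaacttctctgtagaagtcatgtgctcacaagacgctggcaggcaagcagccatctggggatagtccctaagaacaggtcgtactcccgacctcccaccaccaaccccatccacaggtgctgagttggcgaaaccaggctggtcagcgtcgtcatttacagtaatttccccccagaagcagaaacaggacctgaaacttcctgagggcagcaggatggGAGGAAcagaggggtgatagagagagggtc
C1qc, chr4:136893092-136893117: cggcagacacTTCCTCattttggcac

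The protease gene C1ra (chr6:124512621-124523440, plus strand) had the log2 fold change furthest from 0 of the 9 between the CVST+Ligation and CVST groups. It had 12.2, 18.3 and 8.46 CPM in the CVST mice, 3.26, 3.92 and 3.78 in the CVST+Ligation mice and 2.11, 4.12 and 8.42 in the 4-PBA mice. The CVST+Ligation mice lay in a narrow band below the CVST mice. The 4-PBA mice were spread more widely, and the highest of them, replicate 3, was just below the lowest CVST mouse. The mean went from 13.005 ± 4.97 CPM in the CVST group to 3.65 ± 0.344 with ligation (SD, n = 3 for each), which was -1.83 on the log2 scale (standard error 0.47). The unadjusted p was 0.00315 and the adjusted p 0.294 in the quasi-likelihood test of edgeR with Benjamini-Hochberg adjustment. DESeq2 gave an adjusted p of 0.0144, and the settings tried ranged from 0.0144 to 0.576. When single mice were left out, the value of C1ra stayed between -2.08 and -1.50 and its unadjusted p below 0.05 in all 6 fits. Against the CVST group, the 4-PBA group differed by -1.40 (standard error 0.46, unadjusted p = 0.0127), or by -1.06 without CVST replicate 2, where the unadjusted p was no longer below 0.05 (0.063). It differed from the CVST+Ligation group by 0.43 (standard error 0.46, unadjusted p = 0.377), or by -0.22 without 4-PBA replicate 3.

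C1s1, the gene of the protease that C1r activates, did not follow C1ra. It had 2.25, 6.08 and 1.57 CPM in the CVST mice, 2.07, 6.65 and 1.27 in the CVST+Ligation mice and 3.14, 4.97 and 2.29 in the 4-PBA mice. Replicate 2 was the highest in each group, and the groups overlapped throughout. In FPKM, the ratio of C1ra to C1s1 was 5.33, 2.96 and 5.28 in the CVST mice, 1.55, 0.578 and 2.91 in the CVST+Ligation mice and 0.66, 0.815 and 3.62 in the 4-PBA mice. Each CVST+Ligation mouse was below each CVST mouse in this ratio, the closest pair being 2.91 and 2.96. C1rb, a near copy of C1ra, was listed with 0 counts in each library. How reads that match both copies were assigned is not given in the sources used here, so the counts of C1ra are uncertain in this respect. Over the 9 libraries C1ra was most like Npl (r = 0.966) and Otulin (r = 0.965).

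The gene of the C1 inhibitor was the only one of the 9 with a log2 fold change above 0 between CVST+Ligation and CVST. Serping1 (chr2:84765360-84775444, minus strand) had 10.8, 18.8 and 8.35 CPM in the CVST mice, 11.985, 37.3 and 10.9 in the CVST+Ligation mice and 16.6, 44.6 and 35.9 in the 4-PBA mice. CVST+Ligation replicate 2 stood well above the other mice of its group, which were within the CVST range, and 4-PBA replicates 2 and 3 were above every CVST mouse. The 4-PBA and CVST groups overlapped only through 4-PBA replicate 1, which lay below CVST replicate 2. The mean was 12.6 ± 5.47 CPM in the CVST group, 20.1 ± 14.96 in the CVST+Ligation group and 32.4 ± 14.3 in the 4-PBA group (SD, n = 3 for each). Against the CVST group the log2 fold change was 0.66 (standard error 0.54, unadjusted p = 0.248) with ligation, and -0.15 without CVST+Ligation replicate 2. It was 1.36 (standard error 0.54) in the 4-PBA group, with an unadjusted p of 0.0324 and an adjusted p of 0.272 in the quasi-likelihood test of edgeR with Benjamini-Hochberg adjustment. When single mice were left out, this value lay between 1.06 and 1.78, and the unadjusted p was below 0.05 only without CVST replicate 2 (0.0197) or 4-PBA replicate 1 (0.0138). Between the 4-PBA and CVST+Ligation groups it was 0.70 (standard error 0.53, unadjusted p = 0.223), and 1.52 (unadjusted p = 0.00932) without CVST+Ligation replicate 2 but 0.39 without 4-PBA replicate 2. With a replicate block the unadjusted p of Serping1 in this comparison was below 0.05, though the replicate numbers were not taken to pair the mice.

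Marker lists of other cells were set beside Serping1. The 11 listed genes of meningeal fibroblasts, none at the floor and with Dcn the most abundant, summed to 136, 187 and 164 CPM in the CVST mice, 239.5, 362 and 142 in the CVST+Ligation mice and 208, 471 and 174 in the 4-PBA mice. In that list 0 of 11 genes had an unadjusted p below 0.05 between CVST+Ligation and CVST, 1 was higher in the 4-PBA than in the CVST+Ligation group, and 2 were higher in the 4-PBA than in the CVST group. The 18 listed interferon-stimulated genes, none at the floor and with Ifitm3 the most abundant, summed to 187, 263 and 162 CPM in the CVST mice, 136, 241 and 148 in the CVST+Ligation mice and 143, 207 and 285 in the 4-PBA mice. Of these 18 genes, 2 were lower in the CVST+Ligation than in the CVST group, 1 was higher in the 4-PBA than in the CVST+Ligation group, and 0 differed between 4-PBA and CVST at an unadjusted p below 0.05 in edgeR's test. Of all genes tested, 4.18% were lower in the CVST+Ligation than in the CVST group at this p. After Benjamini-Hochberg adjustment the quasi-likelihood test of edgeR called 0 of the 18 in each comparison. Replicate 2 was high in both lists in the CVST+Ligation group, as it was for Serping1. In the 4-PBA group, replicate 3 had 35.9 CPM of Serping1 and the lowest fibroblast sum, and replicate 2 had the most Serping1 and an interferon sum below that of replicate 3. Of all genes tested, 8.07% were higher in the 4-PBA than in the CVST group at an unadjusted p below 0.05. Further lists held more genes that were higher in this comparison. These were 6 of 8 oligodendrocyte genes (led by Mbp), 5 of 10 choroid plexus genes (led by Ttr) and 3 of 9 mural cell genes (led by Acta2), none at the floor. Between 4-PBA and CVST+Ligation 2, 5 and 0 of these lists' genes were higher, and between CVST+Ligation and CVST 1, 1 and 2. Of all 14746 genes tested, 267 and 806 were higher in these comparisons. The oligodendrocyte genes summed to 2647, 3218 and 3531 CPM in the CVST mice, 2677, 6011 and 4338 in the CVST+Ligation mice and 7614, 5297 and 4744 in the 4-PBA mice. The choroid plexus genes summed to 842, 797 and 989 CPM, then 102, 23.4 and 868, then 3166, 683 and 454 in the same order. Without Ttr these sums were 25.2, 28.1 and 28.0 CPM, then 25.0, 17.7 and 32.8, then 152, 52.6 and 34.6. The mural cell genes summed to 162.5 ± 42.03 CPM in the CVST, 220.4 ± 71.8 in the CVST+Ligation and 259 ± 44.3 in the 4-PBA group (SD, n = 3 for each). The part of these cells and genes in the Serping1 values was not tested. Over the 9 libraries Serping1 was most like Oasl2 (r = 0.988), an interferon-stimulated gene, Cp (r = 0.982), which encodes the copper carrier ceruloplasmin, and H2-Eb1 (r = 0.964), an antigen-presenting molecule.

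The downstream components C4b and C3 varied more between mice of a group than between groups. C4b (chr17:34728139-34743902, minus strand), which encodes the C4 protein cleaved by C1s, had 92.3, 148 and 113 CPM in the CVST mice, 74.0, 128 and 67.6 in the CVST+Ligation mice and 73.3, 93.4 and 195 in the 4-PBA mice. C3 (chr17:57203967-57228136, minus strand), on which all branches of the cascade converge, had 3.02, 13.2 and 2.98 CPM in the CVST mice, 2.40, 9.12 and 2.02 in the CVST+Ligation mice and 3.09, 5.93 and 10.6 in the 4-PBA mice. For both genes replicate 2 was the highest in the CVST and CVST+Ligation groups and replicate 3 the highest in the 4-PBA group, and all groups overlapped. The sum of the interferon-stimulated genes given above was highest in the same libraries, where 16 of the 18 were the highest of their group. The part of these genes in the C3 and C4b values was not tested.

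In the CVST+Ligation group the log2 fold change against the CVST group was -0.39 for C4b (standard error 0.38, unadjusted p = 0.324) and -0.51 for C3 (standard error 0.76, unadjusted p = 0.519). The C4b value was -0.19 without CVST replicate 2 and -0.74 without CVST+Ligation replicate 2. The C3 value was 0.58 without CVST replicate 2 and -1.54 without CVST+Ligation replicate 2. Between the 4-PBA and CVST+Ligation groups C4b differed by 0.42 (standard error 0.38) and C3 by 0.54 (standard error 0.76). Without 4-PBA replicate 3 these values were -0.11 and 0.01, and without CVST+Ligation replicate 2 they were 0.79 and 1.58. Against the CVST group the 4-PBA values were both 0.03, with standard errors of 0.38 for C4b and 0.76 for C3. They changed to 0.25 for C4b and 1.14 for C3 without CVST replicate 2, and both to -0.50 without 4-PBA replicate 3. C4a, a near copy of C4b, was sought among the further complement genes but was absent from the count table. Reads shared by the copies make the C4b counts uncertain.

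The reactive astrocyte genes, whose sum was high in 4-PBA replicate 3, are of interest beside C4b because astrocytes can make C4. Their sums were 1811, 2234 and 1434 CPM in the CVST mice, 1353, 1367 and 1372 in the CVST+Ligation mice and 571, 999 and 3671 in the 4-PBA mice. At an unadjusted p below 0.05, 0 of the 16 differed between CVST+Ligation and CVST, 0 between 4-PBA and CVST+Ligation, and 2 were higher in the 4-PBA than in the CVST group, while 0 passed in each after Benjamini-Hochberg adjustment. The 12 general astrocyte genes, none at the floor and led by Aldoc, summed to 1526, 2399 and 1914 CPM in the CVST mice, 2379, 3795 and 2142 in the CVST+Ligation mice and 2764, 2549 and 2546 in the 4-PBA mice. Of all 14746 genes, 806 were higher in the CVST+Ligation and 1190 in the 4-PBA than in the CVST group at an unadjusted p below 0.05. Of the 12 astrocyte genes, 4 and 1 were. The part of these cells in the C4b values and in those of Megf10, given below, was not tested. The genes most like C4b were Rasip1 (r = 0.963), Alox5ap (r = 0.955), which encodes a helper of leukotriene synthesis, and Cyba (r = 0.948), a subunit of the phagocyte oxidase. Those most like C3 were Snx5 (r = 0.971), the interferon-stimulated gene Ifit3 (r = 0.971) and Msrb1 (r = 0.936).

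The receptors for the C3 and C5 fragments were both far higher in replicate 3 than in the other mice of the 4-PBA group. C3ar1 (chr6:122847140-122856157, minus strand) had 7.95, 16.1 and 6.46 CPM in the CVST mice, 3.84, 8.04 and 3.60 in the CVST+Ligation mice and 2.55, 3.41 and 19.1 in the 4-PBA mice. C5ar1 (chr7:16246743-16259540, minus strand) had 4.97, 7.01 and 3.31 CPM in the CVST mice, 1.82, 1.86 and 2.02 in the CVST+Ligation mice and 1.57, 1.47 and 12.3 in the 4-PBA mice. For both receptors 4-PBA replicate 3 was the highest of the 9 libraries and the other 4-PBA mice the lowest. The CVST and CVST+Ligation groups were separate for C5ar1 and overlapped for C3ar1 through CVST+Ligation replicate 2.

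C5ar1 went from 5.10 ± 1.85 CPM in the CVST group to 1.90 ± 0.108 in the CVST+Ligation group (SD, n = 3 for each), a log2 fold change of -1.42 (standard error 0.75). Although the groups did not overlap, its unadjusted p was 0.0889 and its adjusted p 0.576 in the quasi-likelihood test of edgeR with Benjamini-Hochberg adjustment, and an unadjusted p below 0.05 was reached in 1 setting, the model of only these groups. For C3ar1 the log2 fold change was -0.98 (standard error 0.73, unadjusted p = 0.209), which was -0.48 without CVST replicate 2 and -1.45 without CVST+Ligation replicate 2. The 4-PBA group differed from the CVST+Ligation group by 1.43 for C5ar1 (standard error 0.75, unadjusted p = 0.0868) and by 0.70 for C3ar1 (standard error 0.73, unadjusted p = 0.357). The C5ar1 value was 1.88 without 4-PBA replicate 1 (unadjusted p = 0.0284) and 1.87 without 4-PBA replicate 2 (unadjusted p = 0.0247). Without 4-PBA replicate 3 the values turned to -0.32 for C5ar1 and -0.79 for C3ar1. Against the CVST group they were 0.0088 for C5ar1 and -0.28 for C3ar1, and -1.74 (unadjusted p = 0.00188) and -1.77 (unadjusted p = 0.00812) without 4-PBA replicate 3. Without CVST replicate 2 they were 0.33 for C5ar1 and 0.24 for C3ar1, and C3ar1 also changed sign without 4-PBA replicate 1 (0.16) or 4-PBA replicate 2 (0.0957).

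A list of phagocyte genes was compared with the receptors. One of them, Cd68, which encodes a lysosomal protein of phagocytes, had 35.4, 43.6 and 38.4 CPM in the CVST mice, 22.2, 23.4 and 22.9 in the CVST+Ligation mice and 20.4, 23.9 and 50.3 in the 4-PBA mice. For the CD68 protein, the authors report stronger immunofluorescence with ligation than with CVST alone, in other mice. The 14 listed genes of activated phagocytes, none at the floor and with Apoe the most abundant, summed to 2488, 2903 and 2831 CPM in the CVST mice, 2534, 3573 and 2839 in the CVST+Ligation mice and 3401, 3815 and 3627 in the 4-PBA mice. Within the 4-PBA group, 12 of the 14 were highest in replicate 3, while Apoe was lowest there. Without Apoe the sums were 1566, 1626 and 1266 CPM in the CVST mice and 1005, 1608 and 1155 in the CVST+Ligation mice. For the 4-PBA mice they were 1028, 1205 and 1957 CPM. Of the 13 phagocyte genes tested, 9 had a log2 fold change below 0 between CVST+Ligation and CVST and 4 above 0, with a median of -0.33. At an unadjusted p below 0.05, 1 was lower in the CVST+Ligation than in the CVST group (4.18% of all genes). Between 4-PBA and CVST+Ligation 0 differed, and 1 was higher in the 4-PBA than in the CVST group (8.07% of all genes). Adjusted by Benjamini-Hochberg, edgeR's quasi-likelihood test called 0 of them. Neutrophils, which carry C5ar1 at high density, left few reads, and their 10 listed genes summed to 0.992 to 10.1 CPM, with S100a9 the most abundant and 2 at or under the floor in every library. This sum was highest in 4-PBA replicate 3, where 5 of the 10 genes were the highest of their group. Another of them, Ngp, had 0 counts there, against 13 and 26 in the other 4-PBA mice. The 6 listed monocyte genes, none at the floor and led by Fn1, summed to 167, 213 and 135 CPM in the CVST mice, 148, 229 and 131 in the CVST+Ligation mice and 127, 131 and 271 in the 4-PBA mice, and all 6 were highest of the 4-PBA group in replicate 3. Without Fn1 the monocyte sums were 17.1, 18.5 and 15.1 CPM in the CVST, 15.7, 13.9 and 15.5 in the CVST+Ligation and 17.4, 17.7 and 24.1 in the 4-PBA mice. Of the 4 monocyte genes tested, 0 had an unadjusted p below 0.05 in any comparison by edgeR. The part of phagocytes, neutrophils and monocytes in the receptor values was not tested. C3ar1 was most like Tlr13 (r = 0.993), Alox5ap (r = 0.982) and Ms4a6d (r = 0.977). C5ar1 was most like Hmox1 (r = 0.961), the heme-degrading enzyme, Anxa3 (r = 0.953) and Cd68 (r = 0.951).

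**Figure D3:**
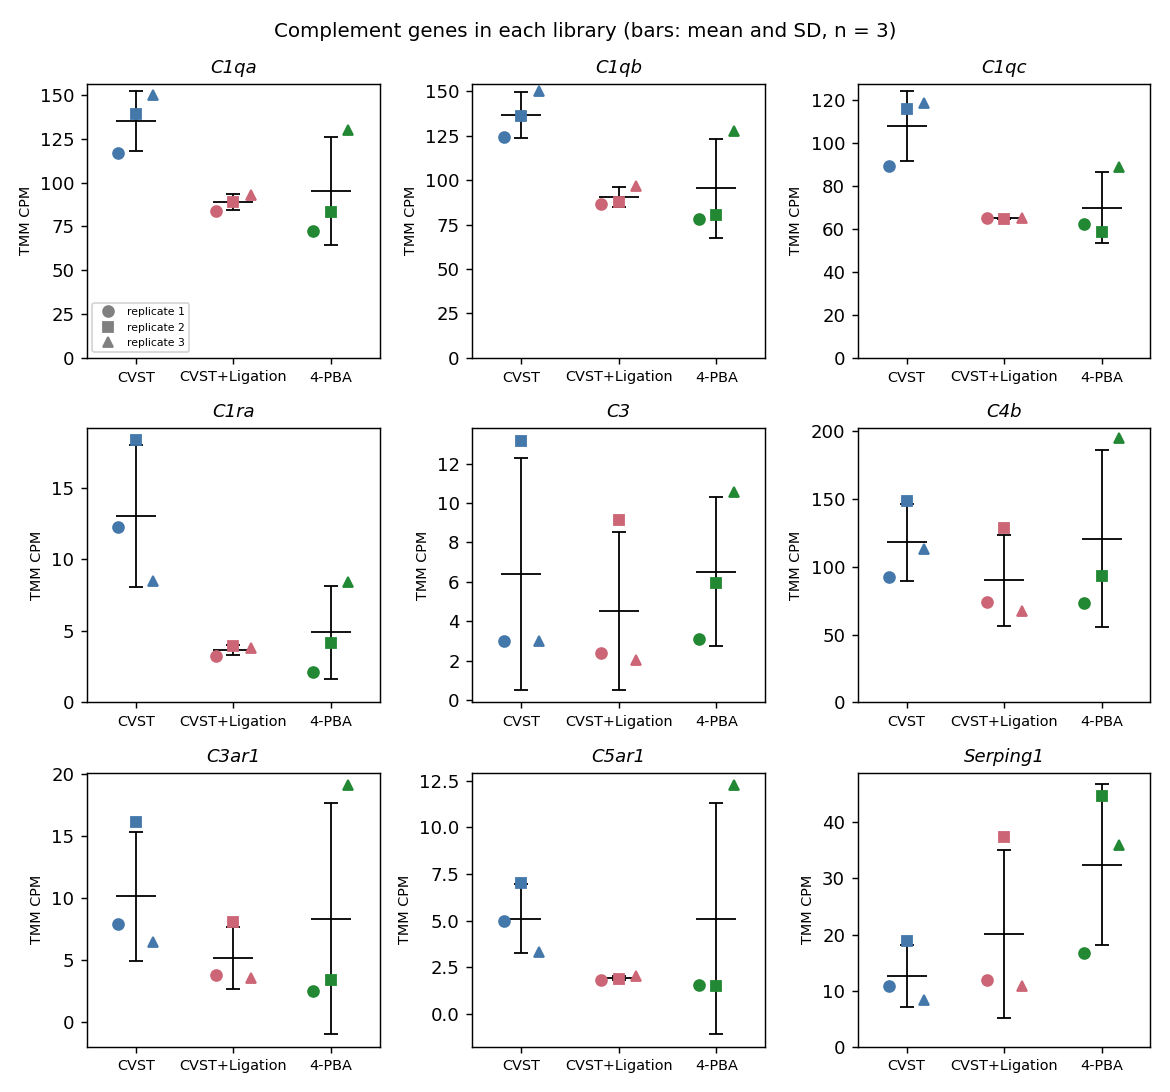
Level of each complement gene (vertical axes, TMM CPM) in the 9 libraries by group; points are single mice with shape for the replicate, and bars give the mean and SD over 3 mice. The CVST+Ligation points of C1qa, C1qb, C1qc, C1ra and C5ar1 lie below all CVST points, and 4-PBA replicate 3 is the highest of its group for every gene but Serping1.

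The wider complement system was described with a list of 55 further genes, of which 54 were in the count table and 37 were tested. In the comparison of CVST+Ligation with CVST, 2 of the 37 were lower and 1 higher at an unadjusted p below 0.05, with a median log2 fold change of -0.05 over the 37. Of all 14746 genes, 616 were lower and 806 higher at this p. Between 4-PBA and CVST+Ligation the numbers were 0 and 0, against 209 and 267 of all genes. Between 4-PBA and CVST 2 of the 37 were lower and 2 higher, against 1081 and 1190 of all genes. After Benjamini-Hochberg adjustment edgeR's quasi-likelihood test called 0 of the 37 in each comparison.

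Of the initiating genes beside C1, Masp1, which encodes a protease of the lectin branch, had the highest FPKM averaged over all libraries (8.27), though Masp2 exceeded it in the means of the CVST+Ligation (8.97 against 8.18) and 4-PBA groups (7.24 against 6.47). Masp1 had 32.0, 38.0 and 24.8 CPM in the CVST mice, 22.9, 26.5 and 25.1 in the CVST+Ligation mice and 16.4, 17.4 and 23.7 in the 4-PBA mice, all of the last below the CVST mice (log2 fold change -0.72, standard error 0.20, unadjusted p = 0.00581). The properdin gene Cfp was the only one of 3 genes of the alternative branch that was tested, at 3.45 to 8.14 CPM. Of the 7 genes of the terminal pore, 3 were tested and C8g was the most abundant by FPKM, at 0.765 to 1.75 CPM. C7, another pore component, had 1.87, 1.37 and 0.868 CPM in the CVST mice and 0.455, 0.258 and 0.747 in the CVST+Ligation mice (log2 fold change -1.48, standard error 0.53, unadjusted p = 0.0206). Its value lay between -1.92 and -1.19 when single mice were left out, and the p was not below 0.05 without CVST replicate 1, CVST+Ligation replicate 1 or CVST+Ligation replicate 2.

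Of the 54 further genes, the regulator Clu had the highest FPKM. It encodes clusterin, a chaperone that also blocks the terminal pore, and lay between 1249 and 1577 CPM in all 9 libraries. Of the 17 regulators tested, Cd59a, which encodes a membrane inhibitor of the pore, had an unadjusted p below 0.05. It had 5.91, 5.32 and 4.88 CPM in the CVST mice, 5.70, 14.997 and 6.29 in the CVST+Ligation mice and 11.7, 25.2 and 12.3 in the 4-PBA mice. The 4-PBA mice were all above the CVST mice, with a log2 fold change of 1.61 (standard error 0.42, unadjusted p = 0.00388, adjusted p = 0.123 in the quasi-likelihood test of edgeR with Benjamini-Hochberg adjustment).

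Among the receptor genes, Calr, which encodes calreticulin, a C1q-binding chaperone, was the most abundant at 831 to 1087 CPM. Itgam, the alpha chain of complement receptor 3, had 2.51, 2.04 and 2.06 CPM in the CVST mice, 1.24, 0.721 and 1.23 in the CVST+Ligation mice and 0.867, 0.673 and 1.60 in the 4-PBA mice. Both ligated groups lay below the CVST group, with log2 fold changes of -1.04 (standard error 0.43, unadjusted p = 0.0357) and -1.06 (standard error 0.43, unadjusted p = 0.0328). Megf10, an engulfment receptor of astrocytes that binds C1q, was higher instead, with 8.41, 10.2 and 4.99 CPM in the CVST mice, 11.1, 28.0 and 10.5 in the CVST+Ligation mice and 17.2, 17.0 and 13.6 in the 4-PBA mice. Its log2 fold changes were 1.07 (standard error 0.40, unadjusted p = 0.0243) and 1.02 (standard error 0.40, unadjusted p = 0.0306) against the CVST group, and for Itgam and Megf10 the p adjusted by Benjamini-Hochberg in the quasi-likelihood test of edgeR ranged from 0.265 to 0.483. Without CVST+Ligation replicate 2, Megf10 was 0.46 (unadjusted p = 0.145) between CVST+Ligation and CVST, and without CVST replicate 3 it was 0.81 (unadjusted p = 0.0897). Between 4-PBA and CVST its unadjusted p was below 0.05 only without CVST replicate 2 (0.0249) or 4-PBA replicate 3 (0.0368). For Itgam the unadjusted p was at or above 0.05 in every fit without a library but that without 4-PBA replicate 3 (-1.52, unadjusted p = 0.00888). Masp1 and Cd59a stayed below 0.05 whichever library was left out, at -0.90 to -0.55 and 1.16 to 1.81. These fits of the further genes were chosen after the data were seen.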

How the data were processed

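The authors filtered reads with fastp, aligned them with HISAT2, and used StringTie and RSEM, on build GRCm38 (mm10) per the submitters' processing notes. Their versions are not given. They deposited raw counts of reads per gene symbol. They also deposited expression values called TPM in the methods, which are FPKM, since each equals the count over the library total and 1 length per gene (largest relative error 4.44e-16). The analysis of the counts used edgeR 4.0.16 in R 4.3.3 (TMM, filterByExpr, quasi-likelihood test, all 9 libraries in 1 fit), with Benjamini-Hochberg adjustment over all genes tested. Within groups, log2 CPM correlated across genes with r of 0.946 to 0.982, and chi-square over its degrees of freedom was at least 24.2, so no library repeated another of its group. Alternatives were other scalings and filters, DESeq2 1.42.0, limma 3.58.1 on log2 FPKM with pseudocounts of 1 and 0.1, a replicate block, only the groups compared, and each library left out. Further complement genes were named where their unadjusted p was below 0.05 or their level was highest in a role, and likeness by Pearson's r of log2 CPM (prior count 2), up to 3 genes each; Trem2, P2ry12, Cd68 and C1s1 were named after their values were seen. The steps were tested on simulated data. Genes and lists were chosen with earlier results of these data known. Plots used matplotlib 3.10.9.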

Additional observations from a re-analysis of the deposited data

How the results depend on the processing

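Of 405 log2 fold changes of single complement genes under the alternatives, 377 kept their direction and their side of the adjusted threshold, 3 passed it with DESeq2 alone and 25 changed sign, 5 of them with no library left out. CVST+Ligation against CVST: the count of 4 genes at an unadjusted p below 0.05 stayed at 4 in every alternative but the model of only those groups (5), and the adjusted count of 0 became 2 with DESeq2. The 3 genes called among all genes became 264 with DESeq2, 0 when each library had to hold 10 counts or more, 13 with limma on log2(FPKM + 0.1), 1 in the model of only those groups and 0 to 7 with a library left out. With a library left out, C3 lay between -1.54 and 0.58, Serping1 between -0.15 and 1.07, C4b between -0.74 and -0.19 and C3ar1 between -1.45 and -0.48 on the log2 scale. 4-PBA against CVST+Ligation: the 0 genes called became 22 with DESeq2, 2 with limma on log2(FPKM + 1) and 0 to 2 with a library left out, and the complement genes at an unadjusted p below 0.05 became 1 with DESeq2 and 0 to 1 with a library left out. Ranges with a library left out were -0.19 to 0.29 (C1qa), -0.19 to 0.22 (C1qb), -0.11 to 0.22 (C1qc), -0.22 to 0.80 (C1ra), 0.01 to 1.58 (C3), -0.11 to 0.79 (C4b), -0.79 to 1.19 (C3ar1), -0.32 to 1.88 (C5ar1) and 0.39 to 1.52 (Serping1). 4-PBA against CVST: the 18 genes called became 855 with DESeq2, 112 with all genes of at least 1 count, 6 when 10 or more were required in each library, 87 and 134 with limma on log2(FPKM + 1) and log2(FPKM + 0.1), 234 in the model of only those groups and 2 to 162 with a library left out. The complement genes called became 1 with DESeq2, and those at an unadjusted p below 0.05 (5) became 4, without C1qa, with total counts and in the model of only those groups, and 2 to 6 with a library left out. Ranges with a library left out were -0.80 to -0.32 (C1qa), -0.79 to -0.38 (C1qb), -0.84 to -0.51 (C1qc), -2.05 to -1.04 (C1ra), 1.06 to 1.78 (Serping1), -0.50 to 1.14 (C3), -0.50 to 0.31 (C4b), -1.77 to 0.24 (C3ar1) and -1.74 to 0.45 (C5ar1). C5ar1 was -0.36 with limma on log2(FPKM + 1) and -0.57 on log2(FPKM + 0.1), where C4b was -0.00016. Of the genes at an unadjusted p below 0.05, 52.4% were higher in 4-PBA than in CVST and 65.1% with scaling by total counts. For CVST+Ligation against CVST these shares were 56.7% and 65.4%. For 4-PBA against CVST+Ligation they were 56.1% and 66.1%, and 72.4% with limma on log2(FPKM + 1). Same-numbered libraries deviated with r of -0.0516 to 0.324, over 0.1 in 4 of 9 pairs. These values cannot decide whether the numbers pair the mice, so the main fit held no pairing and a replicate block was an alternative. With the replicate block, the genes called were 1, 1 and 25 in the 3 comparisons in this order, the complement genes at an unadjusted p below 0.05 in the second were 1 (Serping1), and against CVST the 4-PBA value was -0.00026 for C4b and -0.52 for C5ar1. The cause was not tested for any of these changes. The lowest count of the 9 genes was 29, for C5ar1 (exact Poisson 95% interval 19.4 to 41.6, counting error only). The pooled SD of log2 CPM within groups was 1.03 for C5ar1, and each group held 3 mice. The shares of counting error and of the spread between mice in the precision were not tested.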
